A study of Homo sapiens with 12 samples.

Results

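The p53 pathway target genes were followed in 2 hepatocellular carcinoma cell lines in which the glycosyltransferase GALNT1 had been knocked down. The members are 36 genes that textbooks count as direct targets or close partners of p53. The list was drawn up with earlier results of these arrays known. The probes of its genes were found through the RefSeq transcript given for each probe. All 36 genes had a probe, 54 probes in all, among 20503 named genes, 28174 named probes and 50599 probes on the array. Each line, HA22T or PLC5, received either a non-targeting siRNA (siControl) or a pool of siRNAs against GALNT1 (siGALNT1), at 10 nM and with the same Lipofectamine RNAiMAX reagent in all groups. RNA harvested 48 h later was hybridized to one-color Agilent arrays, 3 in each of the 4 groups. No group received an agent that damages DNA or stabilizes p53, and the arrays do not measure p53 protein. The labels do not say whether the arrays of a group came from separate cultures, so p-values measure the spread between these arrays, which may be technical.

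The transcription factor p53 is held at a low level by MDM2, which marks it for degradation. When DNA damage or other stress releases p53, it binds response elements near its target genes and raises their transcription. These targets stop the cell cycle, repair DNA, start apoptosis and restrain p53 again through MDM2, so their joint RNA level is widely read as a sign of p53 activity. In liver cancer, loss of this response is common.

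DNA near the members was searched for the response element, and the matches found are shown because the results return to these genes. Promoter windows of 300 bases (250 before and 50 after the transcription start, RefSeq, GRCh38.p14) were at hand for 28 of the 36 members, as 43 windows. They were searched for the p53 response element consensus, 20 bases made of 2 half-sites of 10 bases without a spacer, with its 4 core letters required. The consensus is its own reverse complement, so both strands were covered. A match with at most 2 mismatches lay in 5 of the 43 member windows (11.6%), in MDM2, DDB2, FAS and AEN, and in 100 of all 35116 windows (0.285%). With at most 3 mismatches the shares were 9 of 43 (20.9%) and 392 of 35116 (1.12%), and SESN1, RPS27L, PMAIP1 and FDXR were added. The windows of 20 of the 28 members held no such match. The best match in the windows of CDKN1A and PLK2 had 5 mismatches. A match is a description of letters and not a measured binding site, and p53 sites outside the windows were not searched. The first line below gives 150 bases before the inner start of MDM2 (chr12:68808867-68809016, plus strand), where the match begins 94 bases before the start. The other lines give 30 bases around each match on the strand of the gene. Capitals mark the letters that fit the consensus.
MDM2: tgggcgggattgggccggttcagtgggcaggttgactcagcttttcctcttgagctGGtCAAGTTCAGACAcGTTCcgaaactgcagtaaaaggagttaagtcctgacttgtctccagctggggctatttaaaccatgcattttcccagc
DDB2 (chr11:47214964-47214993, plus strand): gctccAAGCTgGTTTGAACAAGCCCtgggc
FAS (chr10:88991304-88991333, plus strand): ctcctGGACAAGCCCtGACAAGCCaagcca
AEN (chr15:88621301-88621330, plus strand): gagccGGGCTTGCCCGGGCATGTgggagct
RPS27L (chr15:63157522-63157551, minus strand): aggagGGcCTAGagCAGACAAGCCCgcccc
SESN1 (chr6:109009013-109009042, minus strand): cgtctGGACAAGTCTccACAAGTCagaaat
PMAIP1 (chr18:59899806-59899835, plus strand): gtcggGAGCgTGTCCGGGCAgGTCgcgctc
FDXR (chr17:74872991-74873020, minus strand): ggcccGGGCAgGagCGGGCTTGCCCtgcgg

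Levels are log2 of the processed signal minus the 75th percentile of the array, so 0 is the brightness of that percentile, and levels of different probes are not comparable. Each gene is represented by 1 probe, the brightest among those measured in all 4 groups, and all probes of MDM2 are given. A difference was called at an adjusted p below 0.05 (limma, Benjamini-Hochberg over all counted probes). The criterion of the methods, at least 1.5-fold with an unadjusted p below 0.05, was also applied. Probes detected above background on fewer than 3 of the 6 arrays compared were not counted, and errors of differences are standard errors.

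The arrays held between 36679 and 48873 spots well above background and no saturated spot (0), and replicates correlated at 0.968 to 0.988. GALNT1 was lower in every siGALNT1 array. Its probe A_23_P306105 read 1.09, 0.63 and 0.39 in HA22T siControl and -2.84, -4.29 and -5.02 in HA22T siGALNT1, a difference of -4.75 ± 0.49 (adjusted p = 0.0305, limma, and 0.107 with the replicate number as a block). Only 1 of these siGALNT1 arrays was well above background, so the size of the fold is uncertain. Its other probe, A_33_P3210218, differed by -5.10 ± 0.61 and was not called (adjusted p = 0.0708, limma). In PLC5 the probes differed by -3.03 ± 0.49 and -3.72 ± 0.61 (adjusted p = 1 for each, limma). Hepatocyte markers were well above background on all 3 PLC5 siControl arrays for 10 of 10 genes but for only 5 of 10 in HA22T, and 8 were called lower in HA22T, albumin (ALB) by -3.96 ± 0.47 (adjusted p = 0.000101, limma) and by -4.26 with the slide as a block. The markers of the labeled tissue were thus only partly present in HA22T. Of 8 mesenchymal markers 4 were counted, and 2 were called higher in HA22T, VIM by 5.54 ± 0.43 (adjusted p = 4.5e-06, limma) and SPARC by at least 14.7-fold. CDH2 (1.49 ± 0.51) and THY1 (-0.61 ± 0.32) were not called, and THY1 lay lower in HA22T without overlap. The part of these markers in the results was not tested.

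In HA22T, no member gene was called after siGALNT1 (0 of 34 counted), beside 1 of 36327 probes (0.00275%), which was GALNT1 itself. With the p-value of this limma fit, none met the criterion of the methods either, beside 2.87% of probes, and 0 had an unadjusted p below 0.05. In the fit blocked by replicate number, 0 probes were called, and 1752 probes in place of 1043 and 1 member met the criterion. Of the 34 counted members, 15 differences lay above 0 and 19 below, with a median of -0.06, the same as the median over all counted probes, and 32 were smaller than 1.5-fold. All 6 arrays had a value for 31 members, and in 2 of them, MDM2 and TNFRSF10B, the siGALNT1 arrays all lay below the siControl arrays. Of all probes with a value on all 6 arrays, 8.83% had groups that did not overlap, so 2 of 31 is not above the background. Taken as pairs of one replicate number, 16 of these 31 members lay in one direction in all 3 pairs, 5 higher and 11 lower after siGALNT1, beside 34.1% of probes. The members' median was 0.08 with the 75th percentile over unflagged spots and -0.16 with median scaling, so its sign depends on the scaling. Counts by direction are given for the main scaling only.

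MDM2, the ligase that degrades p53 and is itself a p53 target, has 4 probes. The authors list it as lower in HA22T after GALNT1 knockdown, among genes selected for RT-PCR to check their array results. RT-PCR is a measure these arrays do not hold. In the main fit here, no counted MDM2 probe met the criterion of the methods in HA22T. Probes A_19_P00810040, A_23_P502750 and A_24_P925664 were lower by 1.32-, 1.45- and 1.41-fold (unadjusted p = 0.133, 0.127 and 0.444, limma). Probe A_19_P00810040 read -2.58, -2.55 and -2.84 in HA22T siControl and -2.88, -3.27 and -3.02 in HA22T siGALNT1. The siGALNT1 arrays were all lower, by -0.40 ± 0.25 (adjusted p = 1, limma). The same order was seen with probe A_23_P502750, which read -4.04, -4.09 and -4.28 in siControl and -4.42, -4.76 and -4.84 in siGALNT1. This difference was -0.54 ± 0.33 (adjusted p = 1, limma), and only 1 of the 3 siGALNT1 arrays was well above background. With the replicate number as a block A_19_P00810040 gave -0.40 ± 0.21 and A_23_P502750 gave -0.54 ± 0.21 (adjusted p = 0.849 for each, limma). Both were lower in all 3 pairs. Probe A_24_P925664 scattered widely, with -4.11, -5.10 and -7.01 in siControl and -4.97, -6.13 and -6.60 in siGALNT1. Its groups overlapped (-0.49 ± 0.62), and the difference was 0.15 without the siControl array at -4.11. Probe A_33_P3361707 was flagged as non-uniform on 3 siControl and 2 siGALNT1 arrays of HA22T and gave no comparison there. With the flagged spots kept, it read 1.70, 2.31 and 1.85 in siControl and 2.30, 1.52 and 1.81 in siGALNT1, and the groups overlapped (-0.08 ± 0.27).

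In PLC5, MDM2 was at the same level in both groups within its error. The mean level of probe A_19_P00810040 was -2.64 ± 0.20 (SD, n = 3) in PLC5 siControl and -2.65 ± 0.30 (SD, n = 3) in PLC5 siGALNT1. The groups overlapped, with a difference of -0.02 ± 0.25. The differences of the other probes were 0.01 ± 0.33 (A_23_P502750), -0.16 ± 0.62 (A_24_P925664) and -0.07 ± 0.29 (A_33_P3361707). The effects of siGALNT1 on MDM2 in the lines differed by -0.38 ± 0.35 (adjusted p = 0.988 for the interaction, limma), so a difference between the lines was not shown.

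**Figure D1:**
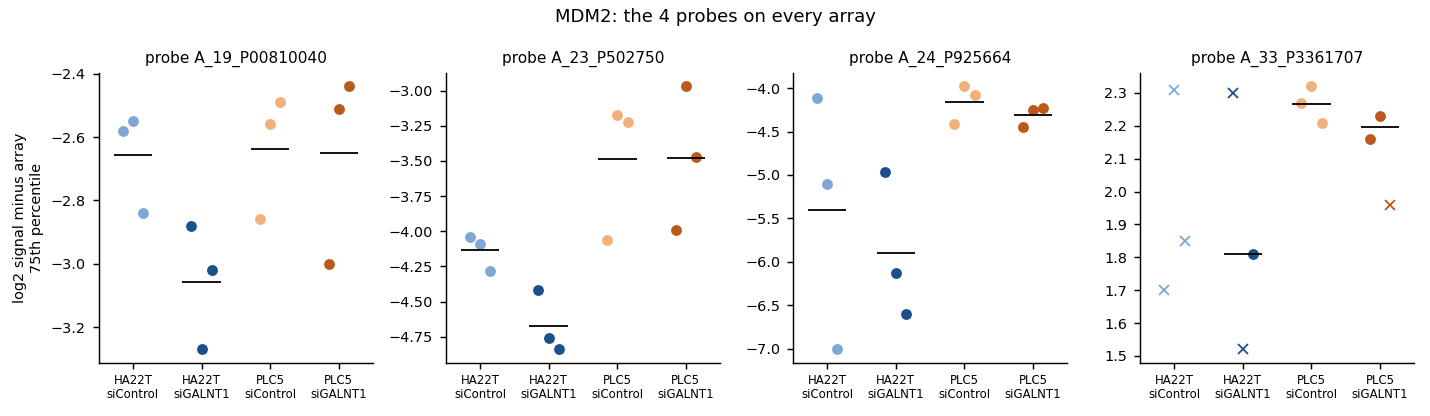
Level of the 4 MDM2 probes (log2 signal minus the array's 75th percentile, vertical axis) on each of the 12 arrays by group (horizontal axis). Dots are arrays, lines are means of the dots, and crosses are spots flagged as non-uniform that were left out; the HA22T siGALNT1 dots lie below the HA22T siControl dots for A_19_P00810040 and A_23_P502750, and the PLC5 groups overlap for these probes.

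The other members that control p53 gave small differences in HA22T. CDKN2A, which encodes the cell cycle inhibitor p16 and the MDM2 inhibitor ARF, read 4.02, 3.56 and 4.06 in HA22T siControl and 3.15, 3.44 and 3.60 in HA22T siGALNT1. The groups overlapped narrowly, with a difference of -0.49 ± 0.35 for this probe and -0.30 ± 0.29 for the other one. MDM4, the partner of MDM2, PPM1D, the phosphatase that ends the p53 response, CCNG1 (cyclin G1) and FBXW7, a ubiquitin ligase subunit, lay between -0.26 and 0.13.

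Among the members that stop the cell cycle, 6 of 7 differences were above 0 in HA22T (median 0.19), and none was called. CDKN1A encodes p21, the inhibitor of cyclin-dependent kinases through which p53 halts the cell cycle. It read -0.41, 0.07 and 0.33 in HA22T siControl and 0.07, 0.39 and 0.79 in HA22T siGALNT1. The groups overlapped, with a difference of 0.42 ± 0.28 (adjusted p = 1, limma), while each of the 3 pairs was higher, by 0.48, 0.32 and 0.46 (adjusted p = 0.849 with the replicate number as a block, limma). GADD45A, a stress sensor that acts in growth arrest and DNA repair, read 1.01, 1.37 and 1.13 in HA22T siControl and 1.16, 2.65 and 1.61 in HA22T siGALNT1. Its difference of 0.64 ± 0.37 (adjusted p = 1, limma) was the highest among the members counted in HA22T. Without the siGALNT1 array at 2.65 it was 0.22. BTG1, BTG2, GADD45B, PLK2 and PLK3 lay between -0.03 and 0.36.

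The members that act in apoptosis inside the cell were mostly below 0 in HA22T (6 of 9, median -0.17). TP53INP1, a stress protein that promotes p53 activity and autophagy, had the lowest difference of the members. It read -3.91, -4.72 and -4.50 in HA22T siControl and -4.50, -5.88 and -5.04 in HA22T siGALNT1, where only 1 of 3 arrays was well above background. The difference was -0.76 ± 0.39 (adjusted p = 1, limma). With the replicate number as a block (adjusted p = 0.849, limma) it was the only member that met the criterion of the methods. AEN, a nuclease induced by p53, read -0.96, -1.72 and -2.08 in siControl and -0.74, -1.28 and -1.57 in siGALNT1, and the groups overlapped (0.39 ± 0.32). All 3 pairs were higher with this probe, but only 2 of 3 with the other one. The mitochondrial apoptosis genes BAX, BBC3 (PUMA) and PMAIP1 (NOXA) differed by -0.31 ± 0.29, 0.03 ± 0.26 and -0.07 ± 0.29.

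Of the receptors of the TNF family, TNFRSF10B, the TRAIL death receptor DR5, was the one whose groups did not overlap in HA22T. It read 2.11, 1.88 and 2.27 in siControl and 1.63, 1.48 and 1.69 in siGALNT1. The difference was -0.48 ± 0.25 (adjusted p = 1, limma), and an exact permutation test of 3 against 3 arrays cannot go below 0.1. FAS, TNFRSF10A (TRAIL receptor DR4), the decoy receptor TNFRSF10C and TNFRSF12A, the receptor of TWEAK, lay between -0.34 and 0.04.

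The DNA repair members XPC, DDB2, POLH and RRM2B lay between -0.30 and 0.10 in HA22T. Of the redox and metabolic members, SESN1, a sestrin that restrains growth signaling, differed by 0.32 ± 0.29 and FDXR (ferredoxin reductase) by 0.01 ± 0.34. TP53I3, a quinone oxidoreductase, read 1.58, -0.37 and 0.51 in siControl and 0.89, -0.60 and 0.05 in siGALNT1. The groups overlapped, and each of the 3 pairs was lower, by -0.70, -0.23 and -0.46. The difference was -0.46 ± 0.53, and -0.46 ± 0.20 with the replicate number as a block (adjusted p = 0.849, limma). The other probe gave -0.58 ± 0.20 with that block (adjusted p = 0.849, limma) and was also lower in all 3 pairs. Without the siControl array at 1.58, which leaves its pair incomplete, the unpaired difference was 0.04. TIGAR, which lowers glycolysis, and SPATA18, which acts in mitochondrial quality control, were too dim to be counted in any comparison.

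In PLC5, no member was called after siGALNT1 (0 of 33 counted, beside 0% of 38070 probes), and 0 met the criterion of the methods, beside 1.29% of probes. GALNT1 itself, with differences of -3.03 ± 0.49 and -3.72 ± 0.61 in PLC5, was not called either. The lack of calls therefore cannot show that the members were unchanged. An unadjusted p below 0.05 was found for 0 members and for 508 probes. Of the 33 members, 23 differences were above 0 and 10 below, with a median of 0.07 against 0.01 over all counted probes, and 32 were smaller than 1.5-fold. The groups of 0 of 32 members with a value on all 6 arrays were apart, beside 4.11% of all such probes. POLH, TIGAR and SPATA18 were not counted.

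Among the probes that represent the members, the lowest values in PLC5, those of PLK2 and PHLDA3, rested on few arrays. The other TP53INP1 probe, A_23_P168882, named after its values were seen, lay lower still, at -1.53. In PLC5 this probe had a value on only 1 siControl array (2.70) and 2 siGALNT1 arrays (1.53 and 0.81). The probe that represents TP53INP1 differed by -0.06 ± 0.39. PLK2, a polo-like kinase induced by p53, read -2.37, -5.94 and -5.07 in PLC5 siControl and -5.47, -5.07 and -5.06 in PLC5 siGALNT1, so that 1 siControl array stood apart. The difference was -0.74 ± 0.71 and turned to 0.31 without that array. PHLDA3, which blocks AKT signaling, read 0.64, 1.02 and 0.53 in siControl and 0.11 and 0.18 on the 2 siGALNT1 arrays with a value. The arrays with a value did not overlap, and the difference was -0.58 ± 0.30 (adjusted p = 1, limma). In HA22T siGALNT1 only 1 array had a PHLDA3 value.

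Above 0 in PLC5 was again GADD45A, at -1.09, -0.68 and -0.46 in siControl and -0.54, 0.11 and -0.28 in siGALNT1. The groups overlapped, with a difference of 0.50 ± 0.37 (adjusted p = 1, limma). CDKN1A read 0.52, 0.86 and 0.63 in siControl and 0.81, 1.03 and 0.70 in siGALNT1, a difference of 0.18 ± 0.28 with overlapping groups. The differences of PMAIP1 (0.37 ± 0.29), PPM1D (0.35 ± 0.30), TNFRSF12A (0.31 ± 0.33), BTG1 (0.30 ± 0.41) and CCNG1 (0.27 ± 0.41) were all close to their errors.

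**Figure D2:**
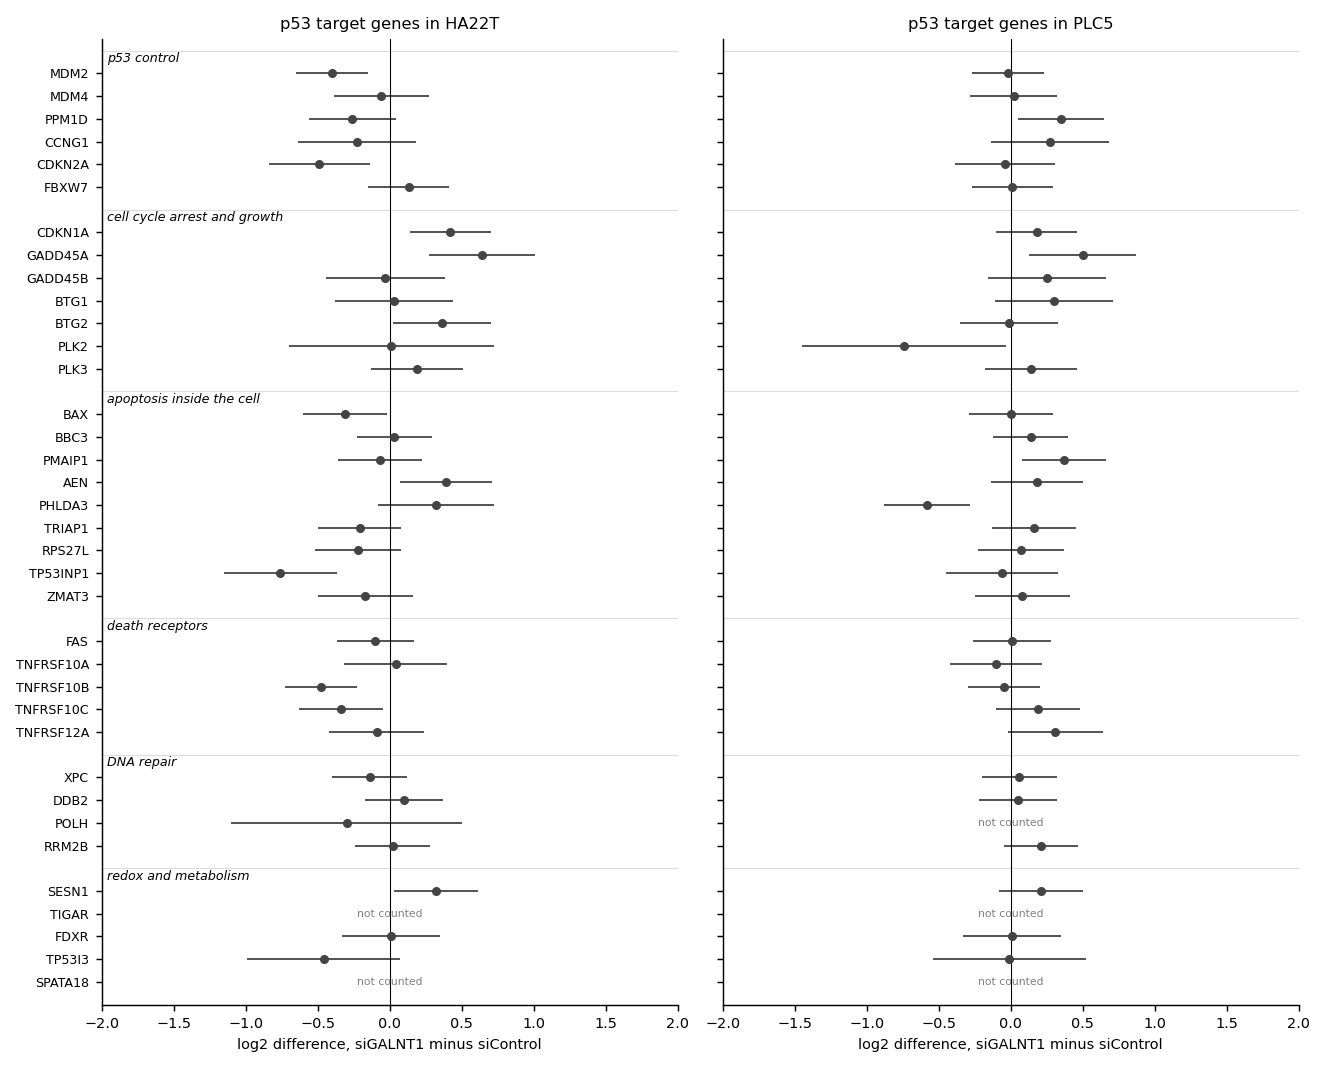
Log2 difference of siGALNT1 minus siControl (horizontal axis) for each member, grouped by role, in HA22T (left) and PLC5 (right). Dots are differences and bars are standard errors of limma; all are gray because no adjusted p was below 0.05, and the differences span -0.76 to 0.64 in HA22T, and -0.74 to 0.50 in PLC5.

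The effects in the lines were compared by the interaction. It was called for 0 of 34 members, beside 0% of 39100 probes, and 0 members met the criterion of the methods, beside 2.43% of probes. The difference between the effects was below 0 for 22 members and above 0 for 12, with a median of -0.20 against -0.07 over all probes. The members farthest from 0 were PHLDA3 (0.91 ± 0.50), PLK2 (0.75 ± 1.00), TP53INP1 (-0.70 ± 0.55), PPM1D (-0.61 ± 0.42), TNFRSF10C (-0.53 ± 0.42), CCNG1 (-0.50 ± 0.57), TP53I3 (-0.45 ± 0.75) and CDKN2A (-0.45 ± 0.49), with adjusted p of 0.988 for each (limma). The standard errors of the members ran from 0.35 to 1.13 (median 0.45), so differences of this size could not be told from 0 with these arrays.

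Between the lines, the members differed more. In siControl arrays, 8 of 34 counted members were called (23.5%), beside 22% of 38011 probes. Of these, 7 were higher in HA22T and 1 was lower, beside 11% of probes in each direction, and 13 members met the criterion of the methods, beside 32.4% of probes. The share of members called was therefore close to that of all probes. The siControl arrays of the lines did not overlap for 15 of the 31 members with a value on all 6 arrays. The share over all probes was not computed for this comparison, so a lack of overlap alone is no result here. The median difference was 0.10 over the members and 0.04 over all counted probes. All HA22T arrays and the first replicate of each PLC5 group were hybridized on 1 slide and the other 4 PLC5 arrays on another. With the slide as a block 5 members were called, beside 17.5% of probes, and within the first slide 1 member was, beside 8.31%. PLC5 siControl has 1 array on the first slide, which was assumed to vary like the other groups there. All 8 kept their direction with the slide as a block and within the first slide. The slide term came from the PLC5 arrays alone, where the slide cannot be told from the first replicate against the others. Both fits use the same PLC5 arrays of the first slide, so they are no separate checks. When only probes well above background on all 6 arrays were counted, POLH and PLK2 dropped out and 6 members were called, beside 21.6% of probes. In bulk RNA, fewer cells that express a gene and less RNA per cell cannot be told apart.

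PLK2 showed the widest gap between the lines. It read 2.67, 2.18 and 2.14 in HA22T siControl and -2.37, -5.94 and -5.07 in PLC5 siControl, where 2 of 3 arrays were well above background. Every HA22T array lay far above every PLC5 array, with a difference of 6.79 ± 0.71 (adjusted p = 3.8e-05, limma). With the slide as a block it was 5.88 (adjusted p = 0.000393) and within the first slide 4.70 (adjusted p = 0.00233, limma). The PLC5 arm within that slide is the array at -2.37 alone, so its own spread was not measured. In the siGALNT1 arrays, compared after the data were seen, it was 7.54.

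GADD45A read 1.01, 1.37 and 1.13 in HA22T siControl and -1.09, -0.68 and -0.46 in PLC5 siControl. The lines did not overlap, and the difference of 1.91 ± 0.37 (adjusted p = 0.00297, limma) was 2.23 with the slide as a block (adjusted p = 0.00454) and 2.25 within the first slide (adjusted p = 0.0623). In contrast, CDKN1A lay lower in HA22T, at -0.41, 0.07 and 0.33 against 0.52, 0.86 and 0.63 in PLC5. The lines did not overlap, but the difference of -0.67 ± 0.28 was not called (adjusted p = 0.112, limma). It was -0.58 with the slide as a block and -0.52 within the first slide. The kinase PLK3 was at 0.73 ± 0.32 (adjusted p = 0.137, limma) and at 0.44 with the slide as a block and 0.29 within the first slide.

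POLH, the polymerase that copies past ultraviolet lesions, read -2.33, -2.66 and -2.80 in HA22T siControl and -4.09, -6.94 and -6.61 in PLC5 siControl. Only 1 PLC5 array, the one on the first slide, was well above background, so POLH was counted only through HA22T and the size of its difference is uncertain. The difference of 3.28 ± 0.80 (adjusted p = 0.012, limma) was 1.47 with the slide as a block (adjusted p = 0.00485) and 1.49 within the first slide (adjusted p = 0.0597). The other DNA repair members were not called. XPC, the damage sensor of nucleotide excision repair, read 3.09, 2.77 and 2.79 in HA22T and 2.50, 2.21 and 2.19 in PLC5 and did not overlap (0.58 ± 0.26, adjusted p = 0.136, limma, and 0.37 with the slide as a block). XPC and FDXR, described further on, were named after their values were seen.

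FAS, the receptor of Fas ligand, whose window holds a match to the p53 element, was higher in HA22T with all 3 probes. The brightest read 0.11, 0.60 and 0.54 in HA22T siControl and -0.85, -0.78 and -0.98 in PLC5 siControl, with no overlap. The difference was 1.29 ± 0.27 (adjusted p = 0.00509, limma), 1.24 with the slide as a block (adjusted p = 0.0267) and 1.27 within the first slide (adjusted p = 0.153). Probe A_33_P3332112 gave 2.61 ± 0.45 (adjusted p = 0.00149, limma) and 2.51 with the slide as a block, but was not well above background on all 6 siControl arrays. Probe A_33_P3381127 was not well above background on any PLC5 siControl array and was at least 6.61-fold brighter in HA22T, a bound taken from the dimmest detected signal of each array. The TRAIL receptors did not follow FAS. TNFRSF10B differed by 0.02 ± 0.25, TNFRSF10A by -0.26 ± 0.36 and TNFRSF10C by -0.10 ± 0.29.

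CDKN2A read 4.02, 3.56 and 4.06 in HA22T siControl and 3.07, 2.01 and 2.15 in PLC5 siControl. The lines did not overlap, with a difference of 1.47 ± 0.35 (adjusted p = 0.00966, limma) and of 1.51 ± 0.29 for the other probe. With the slide as a block the values were 0.87 (adjusted p = 0.0604) and 1.23 (adjusted p = 0.0227, limma), and within the first slide 0.82 and 1.17. PPM1D read -0.76, -1.32 and -1.28 in HA22T and -1.87, -2.67 and -2.35 in PLC5, with no overlap. Its difference was 1.18 ± 0.30 (adjusted p = 0.0143, limma), 0.88 with the slide as a block (adjusted p = 0.103) and 0.75 within the first slide, and its other probe gave 0.48 ± 0.28. MDM2 was not called between the siControl arrays. Probe A_19_P00810040 differed by -0.02 ± 0.25, A_23_P502750 by -0.65 ± 0.33 and A_24_P925664 by -1.25 ± 0.62, and with the slide as a block the values were 0.26, -0.11 and -1.06. In the siGALNT1 arrays A_23_P502750 was called lower in HA22T (-1.20 ± 0.33, adjusted p = 0.0207, limma), where only 1 of 3 arrays was well above background, and A_19_P00810040 was at -0.40 ± 0.25 (adjusted p = 0.268, limma).

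RPS27L, a ribosomal protein-like target of p53, read 4.96, 4.37 and 4.62 in HA22T siControl and 3.65, 3.01 and 3.18 in PLC5 siControl. The lines did not overlap, and the difference was 1.37 ± 0.30 (adjusted p = 0.00694, limma), 1.02 with the slide as a block (adjusted p = 0.0565) and 1.00 within the first slide. AEN was the member called lower in HA22T, at -0.96, -1.72 and -2.08 against -0.38, -0.70 and -0.53 in PLC5. The difference was -1.05 ± 0.32 (adjusted p = 0.0376, limma) and -1.03 ± 0.34 for the other probe. It was -1.21 with the slide as a block (adjusted p = 0.0619) and -1.21 within the first slide, and it was not called when arrays were scaled by their median (-0.93, adjusted p = 0.0671, limma). TP53INP1 also lay lower in HA22T without overlap, at -1.13 ± 0.39 (adjusted p = 0.0585, limma), and at -0.88 with the slide as a block and -1.04 within the first slide. In the siGALNT1 arrays it was -1.84 (adjusted p = 0.00532, limma). ZMAT3, an RNA-binding target of p53, was at 0.78 ± 0.33 (adjusted p = 0.116, limma) and at 1.26 with the slide as a block, where it was called (adjusted p = 0.0186). In the first slide its difference was 1.16. SESN1 was at -0.85 ± 0.29 (adjusted p = 0.0555, limma), -0.91 with the slide as a block and -1.03 within the first slide. FDXR lay lower in HA22T without overlap (-0.68 ± 0.34, adjusted p = 0.189, limma, and -0.63 with the slide as a block).

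Of the 8 members whose window holds a match to the p53 element, 3 were called between the lines (FAS and RPS27L higher, AEN lower), and of the 20 with a window and no match, 4 were, beside the 22% of all probes. With so few genes no difference between these shares is claimed. In the siGALNT1 arrays all 8 called members kept their direction and 5 of them were called again, beside 22.9% of all probes. These arrays share the cell lines and slides with the siControl arrays, so they are no independent check of the lines.

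**Figure D3:**
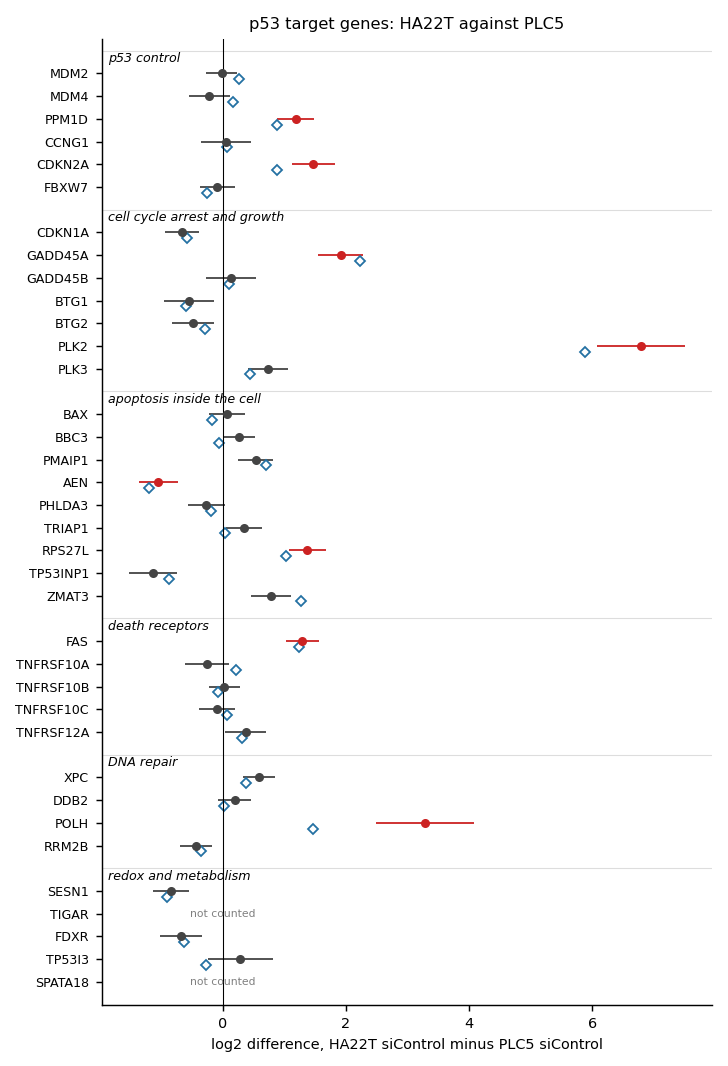
Log2 difference of HA22T siControl minus PLC5 siControl (horizontal axis) for each member, grouped by role. Dots are differences with standard errors, red where the adjusted p was below 0.05, and open blue diamonds are the differences with the slide as a block; PLK2 stands far to the right at 6.79, and AEN is the red dot left of 0, at -1.05.

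**Figure D4:**
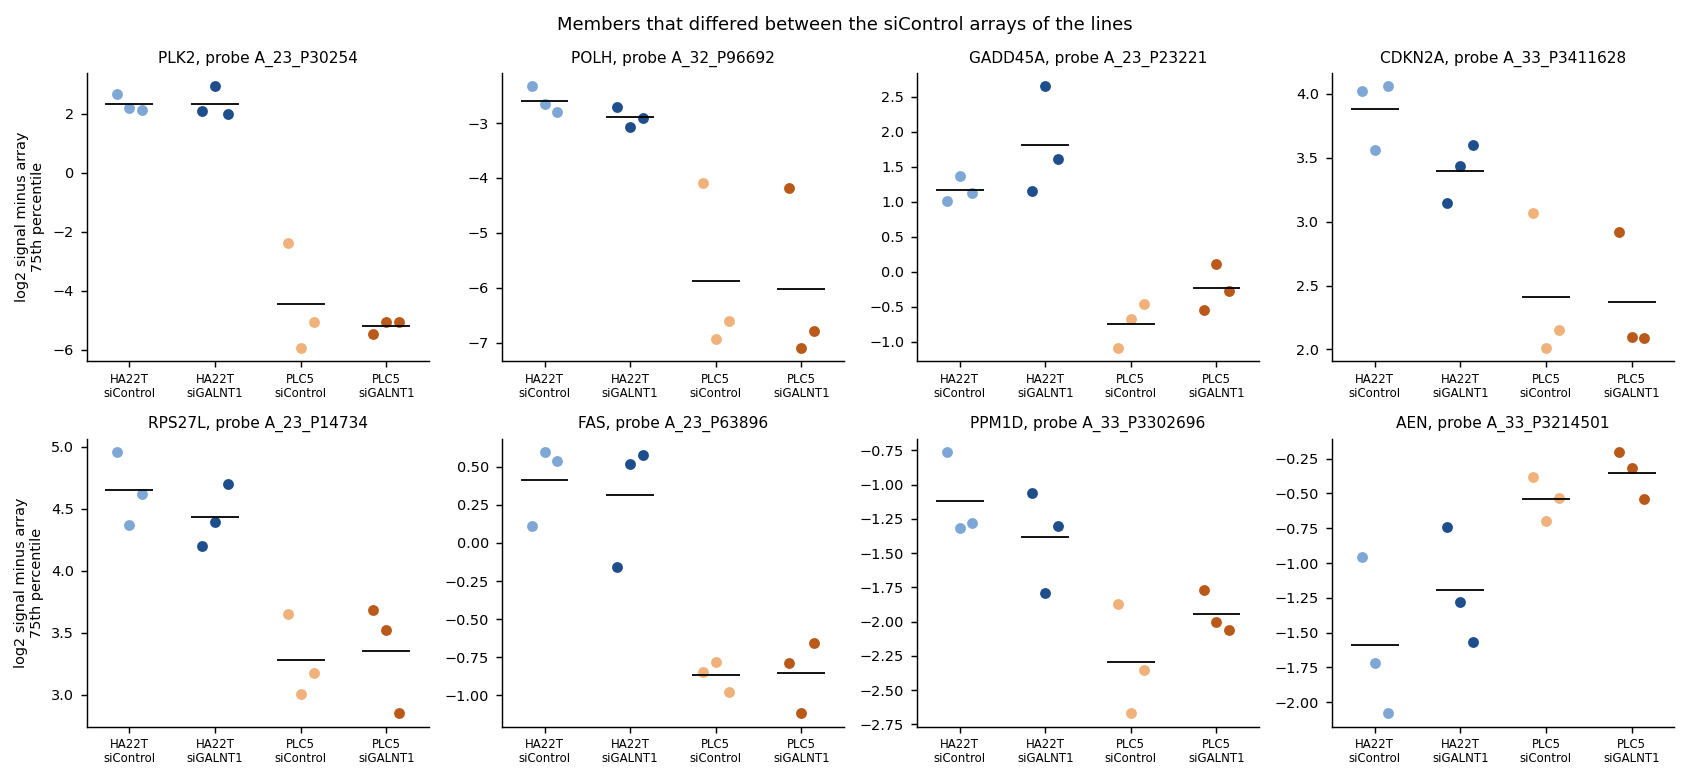
Level (log2 signal minus the array's 75th percentile, vertical axis) of the 8 called members on each array, by group (horizontal axis). Dots are arrays and lines are group means; the siControl arrays of the lines do not overlap in any panel, and for POLH and PLK2 1 PLC5 siControl array lies well above the other 2.

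Of the genes that act on p53 (kinases, ligases and cofactors, 25 genes), 0 were called after siGALNT1 in either line. The kinase HIPK2, named after its values were seen, met the criterion of the methods in HA22T with a probe measured on 2 arrays a group (1.98 ± 0.68), while its other probes lay between -0.45 and 0.11. Between the lines 6 of 24 counted were called (25%), near the 22% of all probes. The damage kinase ATR was at 1.57 ± 0.31 (adjusted p = 0.00355, limma) and the acetyltransferase EP300 at -1.49 ± 0.35 (adjusted p = 0.00987, limma). With the slide as a block 2 were called, beside 17.5% of probes, with ATR at 1.20 and EP300 at -1.35. Of 36 further p53 targets, 0 were called after siGALNT1. In HA22T, 3 of the 31 counted met the criterion of the methods, beside 2.87% of probes. They were named after their values were seen: EDA2R (1.18 ± 0.41), a receptor of ectodysplasin, ACER2 (0.68 ± 0.30), a ceramidase, and DRAM1 (-0.78 ± 0.25), a lysosomal protein of autophagy. Between the lines 15 of 33 were called, 7 higher and 8 lower in HA22T, beside 22% of probes. The numbers were the same with the slide as a block, beside 17.5% of probes. The lower ones included the decoy receptor TNFRSF10D, at least 45.1-fold lower in HA22T siControl, where no array was well above background, the cytokine GDF15 (-3.34 ± 0.42) and the cell cycle inhibitor SFN (-3.21 ± 0.30). The higher ones included the repressor E2F7 (3.61 ± 0.44) and the matrix protein THBS1 (3.07 ± 0.40), and with the slide as a block these were -3.58, -3.59, 2.79 and 3.38 in the order GDF15, SFN, E2F7 and THBS1.

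The cell cycle genes that p53 lowers through p21 and the DREAM repressor complex were not called after siGALNT1 either (0 of 18 in each line, median -0.08 in HA22T and 0.22 in PLC5). Their interaction lay below 0 for 18 of 18 (median -0.29), against 22 of 34 for the members, and 0 of the 18 were called or met the criterion of the methods. Over all probes the median was -0.07 and 44.6% lay above 0. The 18 genes were measured on the same arrays, so their signs are not independent. In HA22T the mitotic kinase PLK1 met the criterion of the methods (-0.87 ± 0.30), but its other probe gave -0.41 ± 0.45. Between the lines 9 of 18 were called, all higher in HA22T, beside 22% of probes called and 11% called higher. The cyclins CCNA2 and CCNB2 were at 2.02 ± 0.43 and 2.00 ± 0.30. With the slide as a block these were 1.21 and 1.58, and the list's median went from 1.27 to 0.69. In that fit 6 of the list were called, 5 higher and 1 lower, beside 17.5% of probes.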

How the data were processed

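The authors labeled cDNA from total RNA, hybridized it to one-color Agilent arrays and extracted the images with Feature Extraction (10.5.1.1 in the submitters' processing notes). The deposited intensity values are its processed signals, from which the software had already subtracted the background, and spot flags accompany them. A deposited matrix holds the authors' log2 values per probe, which correlated with the values used here at 0.99997 or more and served as an alternative. Its columns have their 75th percentile at 0, so direction and scale match, and its exact scaling step is not given in the sources used here.

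From the 12 array files, control spots and spots flagged as non-uniform outliers were left out and log2 of the processed signal was averaged per probe. The array's 75th percentile, taken over all spots other than controls with flagged spots included, was then subtracted. Probes were named through unversioned RefSeq transcripts (GRCh38.p14). limma 3.58.1 (R 4.3.3) was run as 1 model of the 4 groups with no covariate, p-values were adjusted over all counted probes, and the interaction and the comparison of siControl arrays between the lines came from the same fit. The fit was tested on simulated data. Exact permutation tests were two-sided.

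The members and the other gene lists were chosen with earlier results of these data known. MDM2, CDKN1A, members called or past the criterion, and the 8 largest differences were named in each comparison, with GALNT1, and at most 5 called genes of each other list. Values of 1 further gene are not reported here. Genes named outside this rule are marked as such in the text. A bound on a fold was given where a group had no array well above background. The number of arrays limits the precision.

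In HA22T, how far siControl and siGALNT1 arrays of one number lay from their group means correlated at 0.55, 0.403 and 0.43, each above 0.1, so the replicate numbers were taken to pair these arrays. This rests on the values, as the labels give only numbers. In PLC5 the correlations were 0.706, -0.023 and 0.164, and across the lines 0.352, 0.345 and -0.045.

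Results were recomputed with the deposited log2 values, with normexp (offset 50), quantile or median scaling, other filters on dim probes, non-uniform spots kept, a block for the slide or for the replicate number, values within slides, only the groups compared, a trend in eBayes, the methods' t-test, all probes of a gene averaged, and without each array. Normexp used the median spot brightness. Scaling by the percentile over unflagged spots and the line comparison in siGALNT1 arrays were added after the data were seen.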

Additional observations from a re-analysis of the deposited data

How the results depend on the processing

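No alternative called a member after siGALNT1 or for the interaction (0 under each, limma or the methods' t-test). In HA22T, the number of probes called was 3 with normexp and with an eBayes trend and 0 with the filter on all 6 arrays, the replicate block, the slide as a block and only the groups compared (0 to 2 leaving out 1 array, lost for example without siControl replicate 1). Probes past the criterion of the methods numbered 1959 with no filter, 479 with all 6 arrays and 1752 with the replicate block (583 to 1999 leaving out 1 array), and members past it 2 with normexp, 1 with quantile normalization and 1 with the replicate block (0 to 2). In PLC5, 2 probes were called with normexp, 745 passed the criterion with no filter, 124 with all 6 arrays, 325 with the methods' t-test and 765 within slide 1 (316 to 1428 leaving out 1 array), and 1 member passed within slide 1 (0 to 1). For the interaction 548 passed with all 6 arrays and 1660 with the replicate block (572 to 2378). The replicate block changed no call of a member after siGALNT1. Differences of uncalled members changed sign for MDM2 in PLC5 (0.04 with normexp, 0.01 quantile, 0.00 median scaling, 0.05 within slide 2, -0.13 to 0.16 leaving out 1 array), its probe A_23_P502750 (-0.02 with the deposited table and within slide 2, -0.28 to 0.27) and A_33_P3361707 (0.02 median scaling), PLK2 (0.44 within slide 2, -1.48 to 0.31), and TNFRSF12A (-0.04) and BTG1 (-0.20) within slide 1. In HA22T, leaving out 1 array gave -0.93 to 0.04 for TP53I3 and -1.29 to 0.15 for MDM2 probe A_24_P925664, and for the interaction -0.30 to 1.49 for PLK2, -0.93 to 0.05 for TP53I3 and -1.14 to 0.31 for MDM2 probe A_24_P925664. Between the lines, 5 members were called with the slide as a block (4 shared with the 8), 4 with the methods' t-test and 1 within slide 1, and 5 to 9 leaving out 1 array, 5 without PLC5 siControl replicate 2 or 3, where PPM1D, AEN and POLH were lost. Members past the criterion numbered 6 within slide 1 (9 to 14 leaving out 1 array), and probes called there 3106 and past the criterion 8008 (6138 to 8700 and 10500 to 12577 leaving out 1 array). The median over all probes shifted from 0.04 to 0.16 with median scaling and 0.15 with the percentile over unflagged spots, where AEN was not called in either. MDM2 was 0.06 with normexp, 0.10 with quantile normalization and median scaling, 0.02 with the deposited table, 0.26 with the slide as a block, 0.20 within slide 1 and 0.09 with unflagged spots (-0.13 to 0.07 leaving out 1 array). The cause of these changes was not tested. Signal near background limits the differences of POLH, PLK2 and MDM2 probe A_24_P925664.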
